A study of Mus musculus with 6 samples.

Results

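The genes described here encode the machinery that opens replication origins and copies DNA at the fork: 46 genes chosen by symbol, of 23183 listed in each table. They were sorted by role into origin recognition and licensing (8 genes), the MCM2-7 helicase (6), helicase activation (8), polymerases and primase (9), the clamp, its loader and the single-strand binding protein RPA (9), Okazaki fragment processing (4) and chromatin assembly (2). Every member was listed above 0 in all 6 libraries, and all 46 passed the filter of at least 1 FPKM (fragments scaled to transcript length and library depth) in at least 3 libraries.

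The RNA came from primary ILC2 (group 2 innate lymphoid cells) taken from mouse lung, cells that lack antigen receptors and answer to interleukin 33. The genotype is given as WT; the sources used here state no strain, age or number of animals. For 24 h the cells received IL-2, IL-7 and IL-33 at 10 ng/ml together with DTA-1, an antibody that activates the receptor GITR (3 libraries), or with an IgG2b isotype control antibody (3 libraries). All libraries thus carry the same cytokine stimulation, no unstimulated library was used here, and the comparison asks how GITR engagement changes transcripts of cytokine-stimulated ILC2. In replicates 2 and 3 the antibody names in the treatment tags count upward and disagree with the titles, so groups and replicate numbers follow the titles.

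A cell licenses its origins in G1, when the origin recognition complex (ORC), Cdc6 and Cdt1 load the ring of MCM2 to MCM7 onto DNA. In S phase Cdc45 and the GINS complex turn that ring into an active helicase, polymerase alpha-primase lays down primers, and polymerases delta and epsilon extend them, held to DNA by the clamp PCNA that replication factor C (RFC) loads. Many of these genes are transcribed under E2F factors as cells pass from G1 into S phase, so their mRNA is commonly read as a mark of cycling lymphocytes, while several ORC subunits are made at a steadier level through the cycle.

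Because many replication genes are known E2F targets, the bases before their RefSeq starts are shown first. RefSeq promoter windows (GRCm38.p6, 250 bases before to 50 after the start) were found for 39 of the 46 members, several with more than 1 window. The motif searched was TTTCCCGC, TTTCGCGC, TTTGCCGC or TTTGGCGC on either strand, and a gene was counted where any of its windows held a match. Of the 39 members, 15 (38.5%) held a match, against 5.01% of 8076 tested genes with a window and 2.60% of all 27025 genes with a window. The 170 bases before the RefSeq start are printed for 4 members whose DTA-1 libraries all lay below the isotype libraries (Mcm5, Mcm6, Cdc6 and Pola1) and for 2 ORC members whose groups overlapped (Orc1 and Orc3), all of which hold a match there. Capitals mark the E2F matches.
Mcm5 (chr8:75109339-75109508, plus strand): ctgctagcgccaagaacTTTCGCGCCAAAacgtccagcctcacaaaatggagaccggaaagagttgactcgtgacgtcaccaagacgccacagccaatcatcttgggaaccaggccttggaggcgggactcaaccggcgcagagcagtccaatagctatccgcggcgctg
Mcm6 (chr1:128359706-128359875, minus strand): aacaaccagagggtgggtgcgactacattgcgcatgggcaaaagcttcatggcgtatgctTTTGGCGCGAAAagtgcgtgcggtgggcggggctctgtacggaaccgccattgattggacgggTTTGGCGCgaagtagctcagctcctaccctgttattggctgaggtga
Cdc6 (chr11:98907981-98908150, plus strand): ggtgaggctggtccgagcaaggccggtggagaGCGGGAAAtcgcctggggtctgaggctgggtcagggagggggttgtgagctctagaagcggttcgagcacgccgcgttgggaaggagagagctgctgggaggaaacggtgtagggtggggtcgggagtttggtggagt
Pola1 (chrX:93632156-93632325, minus strand): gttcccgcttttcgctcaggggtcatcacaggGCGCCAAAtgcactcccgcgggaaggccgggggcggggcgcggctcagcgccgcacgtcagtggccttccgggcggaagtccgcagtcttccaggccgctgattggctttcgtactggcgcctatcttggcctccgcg
Orc1 (chr4:108579284-108579453, plus strand): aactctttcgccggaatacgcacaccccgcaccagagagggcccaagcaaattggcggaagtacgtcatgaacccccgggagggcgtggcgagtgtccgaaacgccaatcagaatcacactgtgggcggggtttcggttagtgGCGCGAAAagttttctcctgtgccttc
Orc3 (chr4:34614943-34615112, minus strand): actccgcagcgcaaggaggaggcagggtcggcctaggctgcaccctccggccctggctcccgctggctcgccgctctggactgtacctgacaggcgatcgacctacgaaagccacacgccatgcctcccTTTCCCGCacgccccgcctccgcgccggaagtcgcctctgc
In Mcm5 and in the first run of Mcm6, 2 matches on opposite strands overlap. GENCODE places the first base of Cdc6 at 98907801, before the stretch printed, so another annotated start lies further upstream. For Orc1 the GENCODE start, 108579423, lies within the stretch printed, so the marked match is before the RefSeq start but after the GENCODE start.

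Among the other motifs, the CCAAT box (CCAAT) was in 61.5% of the 39 members and 43.4% of the tested genes. The GC box (GGGCGG) was in 76.9% of members and 71.0% of tested genes, and the CHR element (TTTGAA), known from genes of mitosis, in 12.8% of members and 14.0% of tested genes. An E2F match shared a base with a CCAAT box in 1 member window and with no CHR or GC box. A match describes letters only. The 15 members with an E2F match had a median log2 fold change of -0.55, with all DTA-1 libraries below all isotype libraries in 12 of them. The 24 members with a window but no match had a similar median of -0.54, with 16 such genes. For the 7 members without a window the median was -0.51, and all 7 were such genes. Of all tested genes, 10.5% had every DTA-1 library below every isotype library. No test compared these sets of members.

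The mean level of the replication genes with DTA-1 was a median of 64.1% of that with the isotype. In 35 of the 46 genes every DTA-1 library lay below every isotype library, and in 11 (Orc1 to Orc5, Pola2, Pold1, Pold2, Rfc5, Dna2 and Rnaseh2a) the groups overlapped. The share ran from 40.2% for Gins1 to 102% for Orc5, and 27 members lay between 60 and 80%. The log2 fold change on log2(FPKM + 1), DTA-1 over isotype, was below 0 for 45 of 46 members, where 47.4% of all 10501 tested genes were below 0. The member median was -0.54 and the median of all tested genes 0.01. The full separation seen in 35 members held for 10.5% of all tested genes. In no member did every DTA-1 library lie above, against 11.2% of all tested genes. No member passed the limma test at an adjusted p of 0.05 over all genes (0 of 46); of all tested genes 0.0381% passed, 0.0286% higher and 0.00952% lower. At an unadjusted p under 0.05, 33 members were lower, against 7.73% of all tested genes, and none higher, against 6.22%. At an adjusted p under 0.10 there were 6 lower (Pola1, Lig1, Pcna, Prim1, Gins2 and Rpa2), against 0.429% of all tested genes, and none higher, against 0.419%. With libraries weighted by quality 24 members passed at 0.05 as lower (2.99% of all tested genes), and with a term for the replicate number 8 did (1.2%). Where no threshold is named, the words lower and below are therefore used here for the order of the libraries, not for a call. Beside a threshold, lower and higher give the direction of the genes past it. In bulk RNA, fewer cells in S phase and less of each transcript per cell cannot be told apart.

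**Figure D1:**
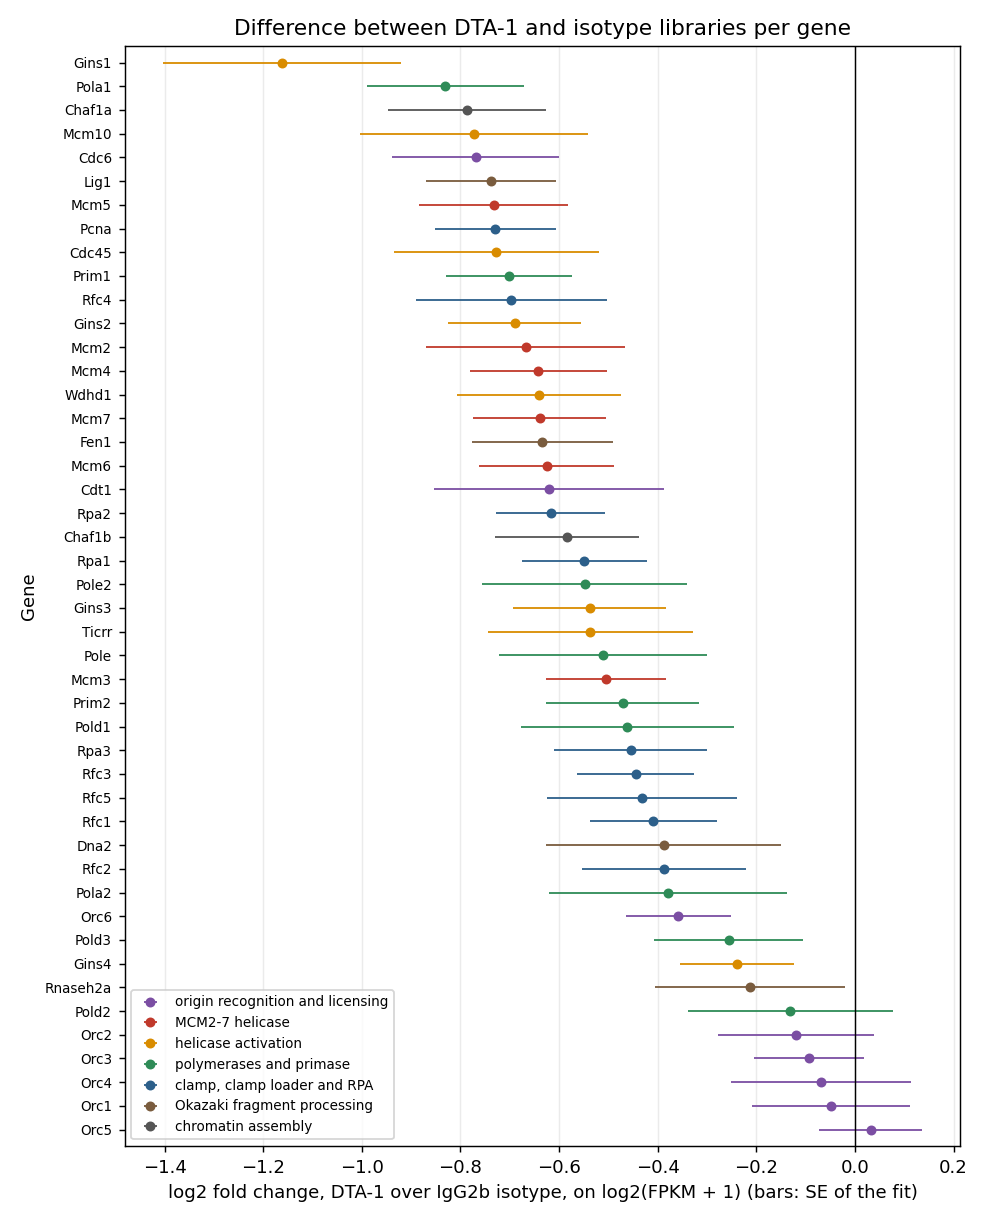
Log2 fold change of each replication gene (horizontal axis, DTA-1 over IgG2b isotype on log2(FPKM + 1); points are estimates and bars the SE of the limma fit, 3 libraries per group), ordered from lowest to highest and coloured by role. Orc5 alone lies above 0, and Orc1 to Orc5 with Pold2 lie nearest to it.

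The isotype group was the more variable. The median SD over members was 0.097 on the log2 scale between DTA-1 libraries, against 0.28 between isotype libraries, and the isotype SD was the larger in 43 of 46 members. Over all tested genes the medians were 0.12 for DTA-1 and 0.201 for the isotype. Isotype replicate 1 was the highest of the 6 libraries for 37 members. Leaving it out moved the log2 fold change by over 1.5 times, or turned its sign, in 17 members (Orc1, Orc4, Orc5, Cdt1, Mcm2, Mcm10, Ticrr, Pola2, Pold1, Pold2, Pold3, Pole, Pole2, Rfc2, Rfc5, Dna2 and Rnaseh2a). With it left out the SD was 0.118 over isotype replicates 2 and 3 and the member median was -0.42. Isotype replicates 2 and 3 both lay above every DTA-1 library in 35 members (14.8% of all tested genes). Leaving out a library cannot lower this count. Without isotype replicate 1, 29 members were lower at an unadjusted limma p under 0.05 (7.27% of all tested genes). The median of polymerases and primase was -0.47 with all libraries and -0.27 without it, and that of Okazaki fragment processing -0.51 and -0.30. The median of MCM2-7 was -0.64 and -0.50, that of helicase activation -0.67 and -0.48, and that of the licensing genes -0.11 and -0.17.

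**Figure D2:**
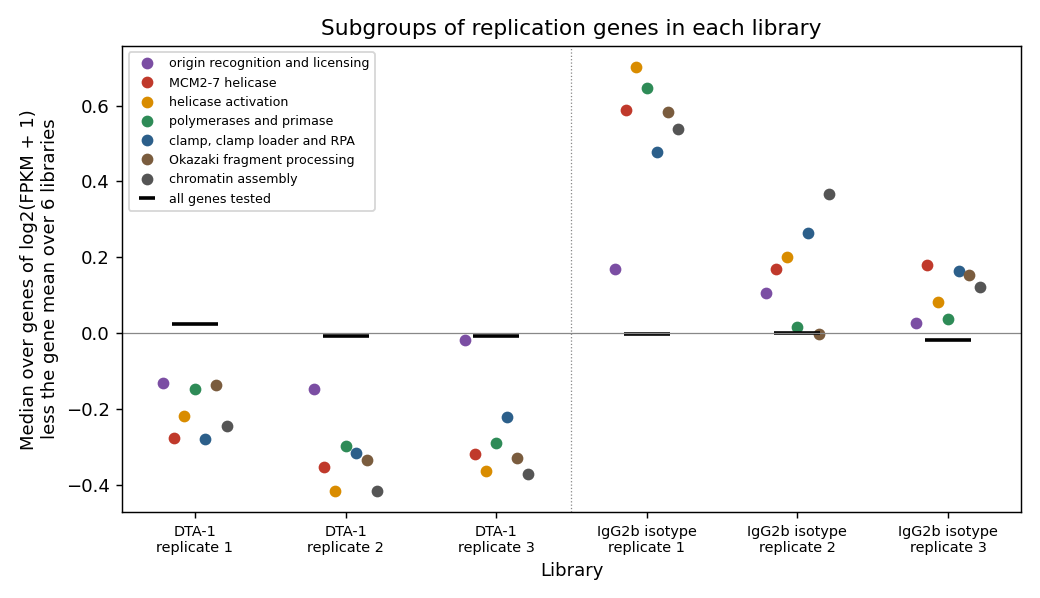
Median over the genes of each role of log2(FPKM + 1) less the gene's mean over all 6 libraries (vertical axis), for each library (horizontal axis, 3 DTA-1 and 3 IgG2b isotype); black bars are the same median over all 10501 tested genes. The DTA-1 medians lie between -0.42 and -0.018, isotype replicate 1 reaches 0.70 for helicase activation, and the licensing genes lie nearest to 0 in every library but isotype replicate 2, where Okazaki fragment processing does.

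Among the 8 licensing genes, Cdc6, Cdt1 and Orc6 had separate groups and the other ORC genes overlapped. Cdc6, the ATPase that recruits the helicase together with Cdt1, measured 8.22 ± 0.345 FPKM with DTA-1 and 15 ± 3.77 FPKM with the isotype (SD, n = 3 each), a log2 fold change of -0.77 ± 0.17 (SE; limma adjusted p = 0.125). Cdt1, its partner in loading, stood at 14.2, 12.8 and 12.6 FPKM in the DTA-1 libraries, against 31.1, 15 and 19.1 FPKM in the isotype libraries, a log2 fold change of -0.62 ± 0.23 (SE; limma adjusted p = 0.285). Isotype replicate 2 lay only just above the highest DTA-1 library for Cdt1, and without isotype replicate 1 the log2 fold change was -0.34.

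Of the 6 ORC genes, whose products bind origins, all but Orc6 had overlapping groups. Orc2 stood at 28.9, 29.4 and 31.5 FPKM in the DTA-1 libraries, against 30.2, 41.4 and 27.7 FPKM in the isotype libraries. Its groups overlapped, with isotype replicate 2 alone high and isotype replicate 3 lowest of all. Orc4 stood at 14.8, 13.6 and 16.4 FPKM in the DTA-1 libraries, against 13.7, 21.1 and 13.3 FPKM in the isotype libraries, again with isotype replicate 2 apart from the others. Orc1, the subunit gene known to be regulated with the cycle, stood at 13.2, 11.1 and 12.2 FPKM in the DTA-1 libraries, against 15.9, 11.5 and 10.8 FPKM in the isotype libraries, a log2 fold change of -0.05 ± 0.16 (SE; limma adjusted p = 0.927). Isotype replicate 1 was the only isotype library above the DTA-1 range for Orc1, and without it the log2 fold change was 0.11. Orc5 stood at 16.1, 16.8 and 15.9 FPKM in the DTA-1 libraries, against 15.6, 15.6 and 16.5 FPKM in the isotype libraries, a log2 fold change of 0.03 ± 0.10 (SE; limma adjusted p = 0.926). Its 6 values lay within the narrowest band of the ORC genes. Orc3 measured 13.3 ± 0.967 FPKM with DTA-1 and 14.3 ± 0.277 FPKM with the isotype (SD, n = 3 each), also with overlap. Orc6, the smallest and least tightly bound ORC subunit in mammals, stood at 26.4, 27.8 and 28.3 FPKM in the DTA-1 libraries, against 37.9, 35.2 and 33.6 FPKM in the isotype libraries. All DTA-1 libraries lay below the isotype libraries for Orc6, a log2 fold change of -0.36 ± 0.11 (SE; limma adjusted p = 0.193). The ORC median was -0.08.

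**Figure D3:**
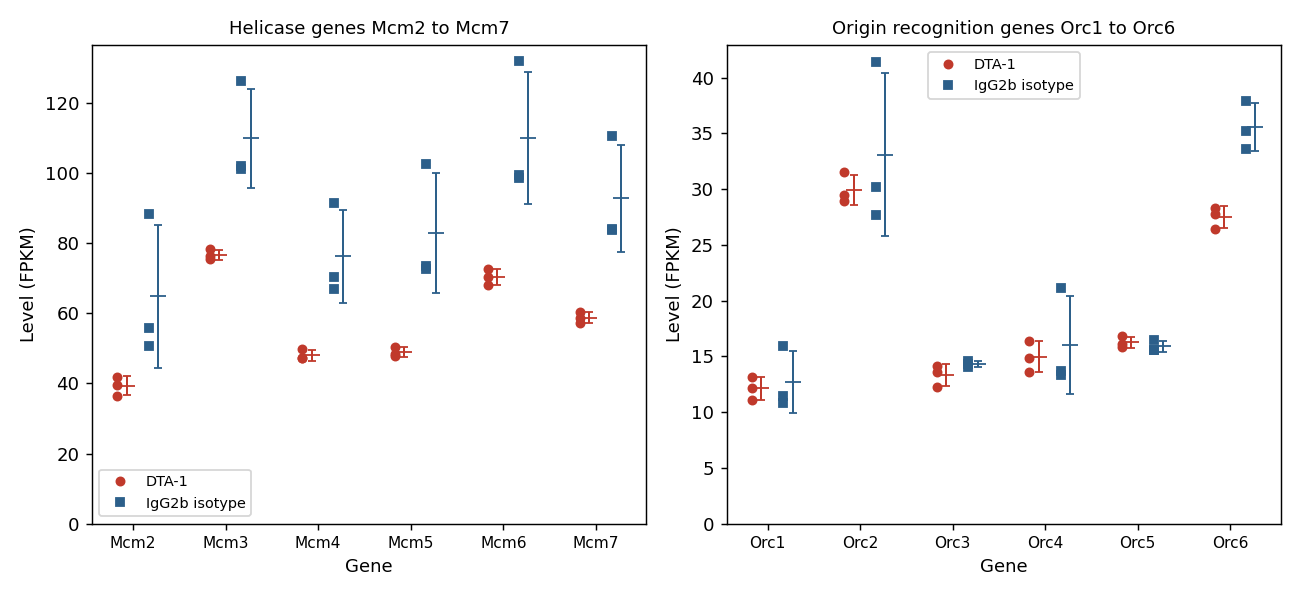
Levels in FPKM (vertical axes, from 0) of Mcm2 to Mcm7 (left) and Orc1 to Orc6 (right); points are the 3 DTA-1 and 3 IgG2b isotype libraries, and the bars beside them mean and SD. The groups are separate for each MCM gene and for Orc6, and overlap for Orc1 to Orc5.

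Cdc6 and Orc1 act in the same loading step. Their ratio, like the other ratios given here, was chosen after the values were seen. The Cdc6 level was 0.643, 0.704 and 0.689 of the Orc1 level in DTA-1 replicates 1, 2 and 3, against 1.21, 1.17 and 1.14 in isotype replicates 1, 2 and 3. The log2 ratio was -0.56 ± 0.068 with DTA-1 and 0.23 ± 0.047 with the isotype (SD, n = 3 each), a difference of -0.79. No test is given for a ratio so chosen, and an exact two-sided permutation test of 3 against 3 libraries cannot go below p = 0.1. The ratio kept the groups apart with isotype replicate 1 close to the other isotype libraries. The Mcm5 level over the Orc2 level was 1.74, 1.64 and 1.52 with DTA-1, against 3.40, 1.76 and 2.66 with the isotype, with isotype replicate 2 just above the DTA-1 range.

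The helicase genes were lower as a block, each with separate groups. Mcm6 stood at 72.7, 68 and 70.4 FPKM in the DTA-1 libraries, against 132, 99.6 and 98.7 FPKM in the isotype libraries. Mcm3 stood at 75.6, 76.4 and 78.3 FPKM in the DTA-1 libraries, against 126, 102 and 101 FPKM in the isotype libraries. Mcm7 (GRCm38, chromosome 5, 138164583 to 138172422, minus strand) stood at 60.5, 57.3 and 58.6 FPKM in the DTA-1 libraries, against 111, 83.8 and 84.3 FPKM in the isotype libraries. In each of these isotype replicates 2 and 3 nearly coincided and replicate 1 lay higher. Log2 fold changes ran from -0.51 for Mcm3 to -0.73 ± 0.15 (SE; limma adjusted p = 0.105) for Mcm5 (chromosome 8, 75109569 to 75128439, plus strand). Mcm4 and Mcm2 measured 48.1 ± 1.56 FPKM with DTA-1 and 76.3 ± 13.2 FPKM with the isotype, and 39.3 ± 2.66 FPKM with DTA-1 and 64.9 ± 20.4 FPKM with the isotype (SD, n = 3 each). Mcm2 was the widest, with a log2 fold change of -0.43 without isotype replicate 1.

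The helicase is a ring with 1 copy of each subunit, so the proportions of the 6 transcripts are of interest. Mcm3 made up 21.7, 22.7 and 22.9% of the summed MCM2-7 level in DTA-1 libraries, against 19.4, 21.5 and 20.9% in isotype libraries. Mcm5 made up 14.5, 14.4 and 14.0% with DTA-1, against 15.8, 15.3 and 15.2% with the isotype. Mcm2, the lowest in every library, made up 12.0, 11.7 and 10.7% with DTA-1, against 13.5, 10.6 and 11.5% with the isotype. The shares of Mcm3 and Mcm5 were separate between the groups, and those of Mcm2, Mcm4, Mcm6 and Mcm7 overlapped. The shares were not tested. The log2 ratio of Mcm2 to Mcm3 was -0.97 ± 0.124 with DTA-1 and -0.80 ± 0.254 with the isotype (SD, n = 3 each), a difference of -0.17 that is smaller than the isotype SD. The summed level of the 6 genes was 342 ± 5.79 FPKM with DTA-1 and 537 ± 99.1 FPKM with the isotype, 63.7%, whereas that of the 6 ORC genes was 114 ± 3.71 FPKM with DTA-1 and 128 ± 11.6 FPKM with the isotype, 89.5%.

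All 8 genes that activate the loaded helicase had separate groups, among them Gins1, the member with the most negative fold change. Gins1, which encodes the PSF1 subunit of GINS (GRCm38, chromosome 2, 150905400 to 150931280, plus strand), stood at 6.44, 7.89 and 8.41 FPKM in the DTA-1 libraries, against 23.1, 21.8 and 11.7 FPKM in the isotype libraries, a log2 fold change of -1.16 ± 0.24 (SE; limma adjusted p = 0.108). Isotype replicate 3 lay well below the other isotype libraries but above all DTA-1 libraries. Gins2, which encodes the PSF2 subunit, stood at 26.4, 22.9 and 24.9 FPKM in the DTA-1 libraries, against 47.1, 39.8 and 35.4 FPKM in the isotype libraries, a log2 fold change of -0.69 ± 0.14 (SE; limma adjusted p = 0.0996). Gins4, which encodes the SLD5 subunit, stood at 24.9, 24.8 and 28.8 FPKM in the DTA-1 libraries, against 31.1, 32.8 and 29.2 FPKM in the isotype libraries, so that DTA-1 replicate 3 nearly reached the lowest isotype library. The log2 fold changes of the 4 GINS genes, whose products also join in equal copies, ran from -1.16 for Gins1 to -0.24 for Gins4. No test compared them. Gins1 had the lowest fragment number of any member in any library (139), and its log2 fold change was -0.76 with library quality weights.

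Cdc45, the remaining partner of the active helicase, stood at 16.9, 14.1 and 13.8 FPKM in the DTA-1 libraries, against 35.4, 19.6 and 23.1 FPKM in the isotype libraries, a log2 fold change of -0.73 ± 0.21 (SE; limma adjusted p = 0.178). Its isotype libraries spread widely, with replicate 1 highest. Mcm10, an activator of the assembled helicase, measured 7.85 ± 0.728 FPKM with DTA-1 and 14.7 ± 5.81 FPKM with the isotype (SD, n = 3 each), and its log2 fold change of -0.77 was -0.49 without isotype replicate 1. Ticrr, which encodes the firing factor Treslin, measured 4.51 ± 0.544 FPKM with DTA-1 and 7.2 ± 2.5 FPKM with the isotype. Wdhd1, which encodes AND-1, the protein that ties polymerase alpha to the helicase, measured 11.3 ± 0.766 FPKM with DTA-1 and 18.5 ± 4.35 FPKM with the isotype (SD, n = 3 each). The groups did not overlap for these genes.

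Of the 9 polymerase and primase genes, 6 had separate groups, and Pola2, Pold1 and Pold2 overlapped. Pola1, the catalytic subunit gene of polymerase alpha on chromosome X, stood at 12, 11.9 and 12.1 FPKM in the DTA-1 libraries, against 26.1, 23.9 and 17.2 FPKM in the isotype libraries, a log2 fold change of -0.83 ± 0.16 (SE; limma adjusted p = 0.0956). The 3 DTA-1 values were almost the same, and isotype replicate 3 lay lowest of its group. Prim1, the catalytic primase subunit gene, stood at 21.5, 24.3 and 24.4 FPKM in the DTA-1 libraries, against 41.4, 41.5 and 33.5 FPKM in the isotype libraries, a log2 fold change of -0.70 ± 0.13 (SE; limma adjusted p = 0.0893). Pola2, the accessory subunit gene of the same complex, stood at 21.9, 21.2 and 19.3 FPKM in the DTA-1 libraries, against 40.5, 18.7 and 26.9 FPKM in the isotype libraries. Isotype replicate 2 was the lowest of all 6 libraries for Pola2, and the log2 fold change of -0.38 was -0.10 without isotype replicate 1. Prim2, the large primase subunit gene, measured 15.3 ± 1.41 FPKM with DTA-1 and 21.8 ± 4.32 FPKM with the isotype (SD, n = 3 each) without overlap.

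Polymerase delta, which extends the lagging strand, had the summed level nearest to the isotype level among the polymerases, over the subunit genes that are members. Its accessory subunit gene Pold2 stood at 37.2, 38.6 and 33.3 FPKM in the DTA-1 libraries, against 55.3, 29.7 and 38.4 FPKM in the isotype libraries, a log2 fold change of -0.13 ± 0.21 (SE; limma adjusted p = 0.839). Isotype replicates 1 and 2 bracketed all DTA-1 libraries, and the log2 fold change was 0.10 without isotype replicate 1. The catalytic subunit gene Pold1 measured 18.7 ± 1.46 FPKM with DTA-1 and 27.1 ± 8.95 FPKM with the isotype, with overlap, and Pold3 17.8 ± 1.28 FPKM with DTA-1 and 21.7 ± 4.27 FPKM with the isotype (SD, n = 3 each), where the groups were barely apart. The summed level of Pold1 to Pold3 was 72.9 ± 4.12 FPKM with DTA-1 and 89.9 ± 25.9 FPKM with the isotype, 81.1%, or 96.4% when isotype replicate 1 was left out. For the 4 genes of polymerase alpha-primase the sums were 71.5 ± 0.508 FPKM with DTA-1 and 112 ± 20.3 FPKM with the isotype, 64.0%, or 71.4% without that library. Pole and Pole2, of the leading-strand polymerase epsilon, summed to 16.2 ± 1.75 FPKM with DTA-1 and 24.9 ± 8.29 FPKM with the isotype, 65.0%, or 80.4% without that library. Both genes had separate groups, and without isotype replicate 1 the log2 fold change of Pole was -0.27 in place of -0.51 and that of Pole2 -0.31 in place of -0.55. The delta and epsilon sums are partial, since the subunit genes Pold4, Pole3 and Pole4 are not members. Pole3 measured 43.8 ± 3.2 FPKM with DTA-1 and 59.2 ± 14.3 FPKM with the isotype. Pole4 measured 38.9 ± 4.06 FPKM with DTA-1 and 43 ± 1.07 FPKM with the isotype.

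For the clamp and the RPA genes every DTA-1 library lay below every isotype library. Pcna (GRCm38, chromosome 2, 132249162 to 132253314, minus strand) was the most abundant member in both groups, at 175, 178 and 187 FPKM in the DTA-1 libraries, against 331, 311 and 260.3 FPKM in the isotype libraries, a log2 fold change of -0.73 ± 0.12 (SE; limma adjusted p = 0.0817). The lowest isotype library was 1.39 times the highest DTA-1 library. Rpa1, the large RPA subunit gene, stood at 57.4, 54.9 and 57.9 FPKM in the DTA-1 libraries, against 96.3, 82.9 and 73 FPKM in the isotype libraries. Rpa3, the smallest, stood at 42.5, 43.9 and 54.4 FPKM in the DTA-1 libraries, against 60.3, 77.5 and 57 FPKM in the isotype libraries, with DTA-1 replicate 3 near isotype replicate 3. Rpa2 measured 23.8 ± 0.547 FPKM with DTA-1 and 37.2 ± 2.97 FPKM with the isotype (SD, n = 3 each), with a log2 fold change of -0.62 ± 0.11 (SE; limma adjusted p = 0.0856) and the smallest relative spread of the RPA genes.

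The 5 clamp loader genes had a median log2 fold change of -0.43. Log2 fold changes ran from -0.70 for Rfc4 to -0.39 for Rfc2, and Rfc5, at 24.3 ± 1.49 FPKM with DTA-1 and 34 ± 9.65 FPKM with the isotype (SD, n = 3 each), was the RFC gene with overlap. Without isotype replicate 1 the log2 fold change was -0.23 for Rfc2 in place of -0.39, and -0.23 for Rfc5 in place of -0.43. For Rfc2 isotype replicate 2 and DTA-1 replicate 1 nearly touched, at 39.58 FPKM in DTA-1 replicate 1 and 39.59 FPKM in isotype replicate 2. The level of Pcna over the mean RFC level was 7.21, 7.24 and 7.30 with DTA-1, against 8.37, 9.75 and 7.97 with the isotype.

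In Okazaki fragment processing, the nick-sealing ligase gene Lig1 stood at 45, 40.8 and 42.4 FPKM in the DTA-1 libraries, against 82.5, 72.9 and 61.9 FPKM in the isotype libraries, a log2 fold change of -0.74 ± 0.13 (SE; limma adjusted p = 0.0856). The flap nuclease gene Fen1 stood at 29.9, 27.8 and 27.6 FPKM in the DTA-1 libraries, against 54.7, 40.3 and 40.3 FPKM in the isotype libraries, with the groups apart and a log2 fold change of -0.63 ± 0.14 (SE; limma adjusted p = 0.129). Rnaseh2a, the catalytic subunit gene of the enzyme that removes ribonucleotides, stood at 12.3, 9.5 and 8.64 FPKM in the DTA-1 libraries, against 14.7, 9.11 and 12.2 FPKM in the isotype libraries. Its groups overlapped, DTA-1 replicate 1 lying above 2 isotype libraries. Dna2, a nuclease and helicase gene, measured 5.34 ± 0.687 FPKM with DTA-1 and 7.63 ± 3.21 FPKM with the isotype (SD, n = 3 each), also with overlap. Chromatin assembly factor 1 places new histones behind the fork. Its large subunit gene Chaf1a stood at 20.7, 17.8 and 17.3 FPKM in the DTA-1 libraries, against 35.4, 38 and 26 FPKM in the isotype libraries, a log2 fold change of -0.79 ± 0.16 (SE; limma adjusted p = 0.103). Chaf1b stood at 11, 9.87 and 10.9 FPKM in the DTA-1 libraries, against 20.02, 14.5 and 14.9 FPKM in the isotype libraries. All DTA-1 libraries lay below the isotype libraries for both. Chaf1a shares exon bases with Ubxn6 on the opposite strand, which measured 43.4 ± 0.392 FPKM with DTA-1 and 34.1 ± 7.18 FPKM with the isotype (SD, n = 3 each).

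**Figure D4:**
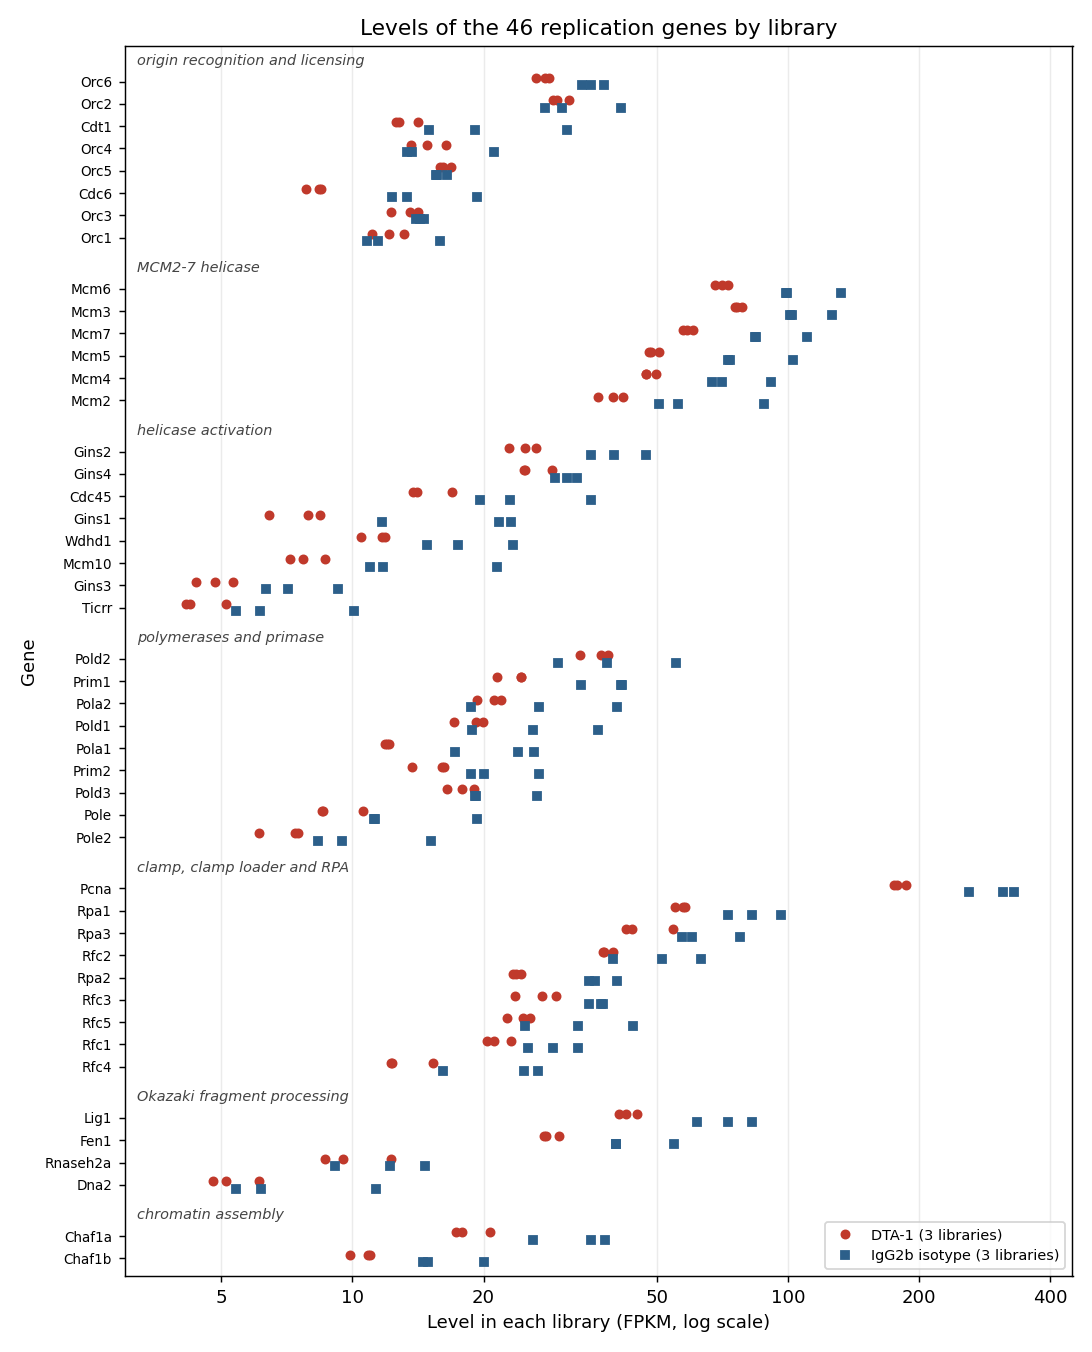
Level of each replication gene in each library (horizontal axis, FPKM on a log scale), with DTA-1 libraries as red circles and IgG2b isotype libraries as blue squares, grouped by role and ordered by isotype level. Pcna is highest in both groups, and in 35 of 46 genes the circles lie wholly to the left of the squares.

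The highest places in the order of levels were shared by both groups. Pcna, Mcm3, Mcm6, Mcm7, Rpa1, Mcm5 and Mcm4 held the first 7 places in each, with Mcm3 above Mcm6 under DTA-1 and the means of both within their spread under the isotype. Further down the order differed: Gins1 stood at place 42 with DTA-1 and 32 with the isotype, and Orc2 at 13 with DTA-1 and 21 with the isotype. FPKM is scaled to transcript length, so these levels can be set against each other, but only roughly. The unit, the annotation and the use of strand are not given, and some differences between libraries followed GC content. The mean MCM2-7 level was 3.12, 3.0 and 2.89 times the mean ORC level with DTA-1, against 5.10, 3.42 and 4.18 times with the isotype.

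Isotype replicate 2 departed from its group in another way. Its difference from isotype replicate 3 followed GC content: across the 46 members Pearson's r was -0.60 and Spearman's rho -0.55, as a description of points that share the same libraries, and across 10089 tested genes -0.59 and -0.66. The 11 members with at most 45% GC, Orc2, Orc4 and Pola1 among them, were higher in isotype replicate 2 by a median of 0.26 on the log2 scale, and the 11 with at least 53% GC, such as Pold1, Pold2 and Cdt1, had a median difference of -0.14. The difference between DTA-1 replicates 1 and 3 had r of 0.62 and rho of 0.65 with GC content over members. The DTA-1 over isotype fold change itself had r of -0.16 and rho of -0.14 with GC content over members. Over the 10089 tested genes the sign was the other way, with r of 0.18 and rho of 0.24. After each library's dependence on GC content and length was removed, the member median was -0.56, against 0.017 over all genes in that fit.

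**Figure D5:**
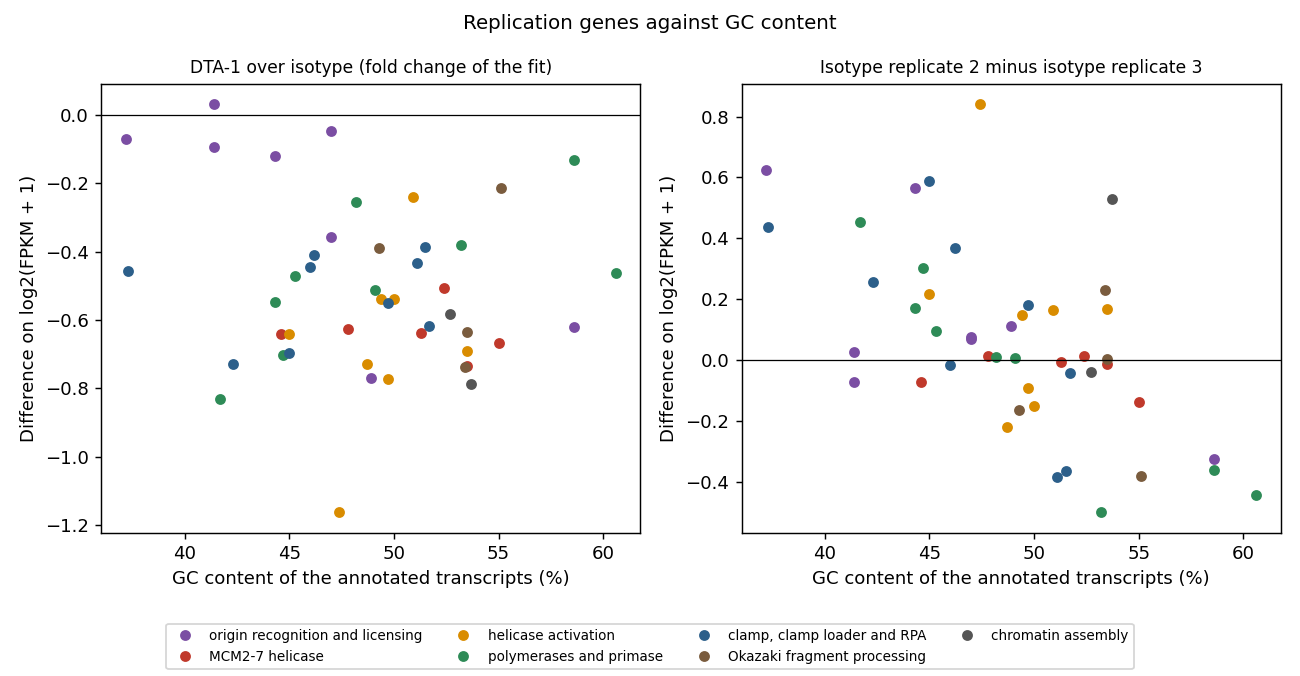
GC content of each replication gene's annotated transcripts (horizontal axes, %) against its log2 fold change, DTA-1 over isotype (left), and against the difference between isotype replicates 2 and 3 on log2(FPKM + 1) (right); each point is 1 of 46 genes, coloured by role. The slope is downward on the right (r of -0.60) and weak on the left (r of -0.16).

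Other genes of S phase gave a similar picture. Of 52 further replication and S phase genes, all tested, none passed over all genes, 37 were lower and 1 higher at an unadjusted limma p under 0.05 (7.73% and 6.22% of all tested genes). The median log2 fold change was -0.53, or -0.36 without isotype replicate 1. Gmnn, which encodes geminin, the inhibitor of Cdt1, stood at 23.5, 20.2 and 23.2 FPKM in the DTA-1 libraries, against 49.5, 47.6 and 34.3 FPKM in the isotype libraries, a log2 fold change of -0.93 ± 0.16 (SE; limma adjusted p = 0.0817). E2f1, an activator of S phase genes, stood at 7.79, 7.5 and 6.82 FPKM in the DTA-1 libraries, against 13.5, 11.2 and 12.7 FPKM in the isotype libraries, a log2 fold change of -0.69 ± 0.12 (SE; limma adjusted p = 0.0856). The gene that was higher was Pold4, the small subunit gene of polymerase delta, at 36.3 ± 5.43 FPKM with DTA-1 and 26.4 ± 5.29 FPKM with the isotype (SD, n = 3 each), a log2 fold change of 0.45 ± 0.18 (SE; limma adjusted p = 0.312); it was picked out after its value was seen. Among 42 mitotic and G2/M genes none passed, 37 were lower at an unadjusted limma p under 0.05, and the median was -0.89, or -0.56 without isotype replicate 1. The kinetochore gene Nuf2, for example, measured 6.5 ± 0.0508 FPKM with DTA-1 and 18.2 ± 6.03 FPKM with the isotype, and Ndc80 7.75 ± 0.706 FPKM with DTA-1 and 18.6 ± 5.51 FPKM with the isotype (SD, n = 3 each).

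The libraries listed 14586 to 14939 genes above 0, with depths estimated from the steps between low values at about 18900000 to 20600000 fragments each. Tnfrsf18, which encodes GITR, stood at 256, 183 and 169 FPKM in the DTA-1 libraries, against 188, 138 and 185 FPKM in the isotype libraries, with overlap. The 14 housekeeping genes had a median log2 fold change of -0.03 and none passed; of the 5 tested genes listed for RNA quality none passed either, with a median of -0.05, or -0.43 without isotype replicate 1. All 14 ILC2 markers were detected. Their summed level, led by the cytokine gene Il13, was 10400 to 11900 FPKM with DTA-1 and 6720 to 7910 FPKM with the isotype. Markers of T cells, led by Cd3g, summed to 11.7 to 12.2 FPKM with DTA-1 and 15.7 to 17.2 FPKM with the isotype. For that sum every DTA-1 library lay below every isotype library, and 2 of these 7 listed markers reached 1 FPKM in 3 libraries. Those of endothelium, led by Pecam1, summed to 19.9 to 38.7 FPKM with DTA-1 and 31.5 to 43.8 FPKM with the isotype, with Vwf at 0. Those of epithelium, led by Epcam, summed to 1.5 to 2.22 FPKM with DTA-1 and 3.89 to 4.65 FPKM with the isotype, with every DTA-1 library below every isotype library. Each other marker list summed to at most 16.7 FPKM in any library, and the part of such cells, and of the ILC2 marker difference, in the replication genes was not tested.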

How the data were processed

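Each sample's table pairs symbols with values whose unit is not named. The deposited values were read as FPKM since they hold fractions, differ in their totals (574195 to 606724) and at low levels fall into steps that shrink as transcripts lengthen. Of low values of single-transcript genes, 54.3 to 56.1% lay within 0.15 of a whole fragment, where 30% would by chance at a depth fixed beforehand. Each library's depth was chosen to fit these same steps best, so 30% is not the chance level for these shares. TopHat and mm10 are named per the submitters' processing notes, and a directional kit per the labels' protocols. The sources used here do not give the quantifier, its annotation or its use of strand. Exon bases are shared with a gene on the opposite strand by 17 members, so these values are uncertain. Among them are Chaf1a (with Ubxn6), Gins2 (with Gse1), Orc2 (with Nif3l1) and Rfc2 (with Lat2). The log2 fold change was 0.36 for Ubxn6, 0.27 for Gse1, 0.28 for Nif3l1 and -0.37 for Lat2. The part of these genes in the member values was not tested. The low values correspond to about 18900000 to 20600000 fragments per library, so that 139 to 11296 fragments stood behind a member's value.

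The 10501 genes that reached 1 FPKM in 3 or more libraries entered limma 3.58.1 (R 4.3.3) as log2(FPKM + 1) (robust empirical Bayes with a trend, a two-sided test of group alone; Benjamini-Hochberg over all genes, threshold 0.05). Such fold changes understate the change of low genes. No source states that separate animals or cultures were used, so the p-values reflect only how these samples vary, which may be technical. The members, lists and tests were chosen with earlier results of these data known. Any member could be named. Values per library were given for up to 3 members of highest level per role and the 3 lowest and 3 highest fold changes, and of each other list the 2 genes with the smallest p. Coordinates, lengths and GC content come from GENCODE M21 (GRCm38, also called mm10), and promoters from RefSeq (GRCm38.p6). GC and length trends were removed with mgcv 1.9.3. Figures were drawn with matplotlib 3.10.9.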

Additional observations from a re-analysis of the deposited data

How the results depend on the processing

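At 0.05, none of the 46 replication genes passed over all genes with the pseudocount, filter, scaling or variance alternatives, with each library left out (0 each), or with the GC content and length trend removed, an alternative chosen after seeing the data. Exceptions were library quality weights (24 lower), a replicate block (8 lower) and a threshold of 0.10 (6 lower). Over all genes, 3 were higher and 1 lower. The counts were 161 higher and 314 lower with quality weights, 59 and 126 with the replicate block, 44 and 45 at the threshold of 0.10, 5 and 2 with quantile normalization, 1 higher without the filter and 1 higher with the GC trend removed, and 2 lower with equal totals and with median ratio scaling. With 1 library left out, 1 to 3 were higher (1 without DTA-1 replicate 2, DTA-1 replicate 3 or isotype replicate 3) and 1 lower. The weights ran from 0.263 for isotype replicate 2 to 5.95 for DTA-1 replicate 2. No label says that replicate numbers mark a shared source, and same-numbered libraries deviated together with correlations of 0.393, -0.101 and -0.129, and 2 of 6 correlated best with their own number.

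Leaving out 1 library gave 26 to 37 members lower at an unadjusted limma p under 0.05 (5.35 to 8.88% of all tested genes), 35 to 39 with every DTA-1 library below (12 to 17% of all tested genes) and member medians of -0.64 to -0.42. The count with every DTA-1 library below cannot fall when a library is left out. The median of the licensing genes ran from -0.21 to -0.099 and that of the clamp, loader and RPA genes from -0.56 to -0.46. Signs turned for Orc1 (-0.15 to 0.11 with 1 library left out), Orc2 (-0.23 to 0.048; 0.023 with quality weights), Orc4 (-0.18 to 0.13; 0.015 with quality weights, 0.11 with the GC trend removed) and Pold2 (-0.34 to 0.10). The cause was not tested. The median of all genes moved by less than 0.1 under each alternative.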

Other observations

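Genes that hold back the cycle lay on both sides of 0. Of 16 tested cell cycle brakes none passed over all genes in limma, 2 were higher and 2 lower at an unadjusted p under 0.05 (6.22% and 7.73% of all tested genes), and the median log2 fold change was -0.02, or -0.08 without isotype replicate 1. Cdkn1a, which encodes the inhibitor p21 that binds both cyclin-dependent kinases and PCNA, stood at 664, 519 and 478 FPKM in the DTA-1 libraries, against 312, 338 and 367 FPKM in the isotype libraries, a log2 fold change of 0.70 ± 0.15 (SE; limma adjusted p = 0.108). All DTA-1 libraries lay above the isotype libraries, with DTA-1 replicate 1 highest. Rbl2, a retinoblastoma family gene, stood at 66, 80.4 and 82.9 FPKM in the DTA-1 libraries, against 104, 97.5 and 92.3 FPKM in the isotype libraries, with all DTA-1 libraries below.

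Cdt1 and its inhibitor geminin stood in a varying proportion. The Cdt1 level was 0.604, 0.633 and 0.542 of the Gmnn level in DTA-1 libraries, against 0.628, 0.315 and 0.556 in isotype libraries, so that isotype replicate 2 alone stood low. Cdt1 has 58.6% GC, and members with at least 53% GC had a median difference of -0.14 between isotype replicates 2 and 3. The part of GC content in this ratio was not tested.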
